A study of Mus musculus with 2 samples.

Results

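Collagen chain genes, taken as all genes whose symbol in the MOE430A annotation is Col, a number, the letter a and a number, were examined in mouse cochlea. They made up 36 of the 12393 genes read by these arrays and were covered by 58 probe sets, each of which names a single gene. Of a gene with several probe sets, the one of the highest mean level was used and the others served as checks. The chains belong to 23 collagen types.

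Values came from 2 Affymetrix MOE430A arrays of total RNA from E18.5 cochleae, dissected with the otic capsule and without vestibular tissue. The labels of the arrays oppose each other: the array titled −/− carries Igf-1 +/+ in the source name and the description, and Igf-1 -/- stands there for the array titled +/+. The genotype was therefore not assigned. Arrays are named here after their titles, and a difference means the log2 level on the array titled −/− minus that on the array titled +/+. If the source names hold, every sign below turns. *Igf1* itself was read on both arrays, with its strongest probe set at 11.03 (titled −/−) and 11.42 (titled +/+). All 3 *Igf1* probe sets were lower on the array titled −/−, at −0.42, −0.75 and −0.58 after centring, which is the direction of the titles, but levels were not used to assign a genotype. Both genotypes were embryos of heterozygous C57BL/6J parents, and the mutant carries a targeted disruption of *Igf1* in all its cells. The labels give 8 cochleae per array, whereas the study design gives pools from 2 embryos and 3 pools, and no source used here says whether a column is 1 pool or combines several. With 1 array per title nothing was replicated, and neither a test nor an error over samples can be given.

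Collagens are trimers of chains whose glycine-rich repeats wind into a triple helix. Fibrillar types form the banded fibres of bone, cartilage, skin and tendon, FACIT collagens sit on the surface of these fibres, and type IV forms the mesh of basement membranes. In the inner ear, types II, IX and XI are the collagens of the cartilaginous otic capsule and of the tectorial membrane, type IV chains line the basement membranes of the cochlear duct and its vessels, and mutations in genes of types II, IV, IX and XI cause hereditary hearing loss in humans.

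A level is the log2 signal of a probe set. Different probe sets bind with different strength, so levels were compared between the arrays and not between genes. Differences were centred by subtracting their median over all probe sets, 0.022. The only repeat measurement is that by several probe sets for 1 gene. Their centred differences had a pooled SD of 0.098 at mean levels of 7.86 and above, 0.23 from 5.63 to 7.86, and 1.10 below. These values count only probe sets of a gene that fell in the same range of levels. Without that limit the pooled SD was 0.61. The array medians were 6.63 (titled −/−) and 6.58 (titled +/+). The tissue label was checked on markers: the otolith and cochlear epithelium gene *Oc90* was at 11.32 (titled −/−) and 11.23 (titled +/+), and the fibrocyte gene *Coch* at 9.20 (titled −/−) and 9.58 (titled +/+). The fibrocyte gene *Otos* was near background, at 4.16 (titled −/−) and 4.21 (titled +/+). Marker groups of 2 other tissues stood apart. All 6 genes of striated muscle were higher on the array titled −/− (median difference 0.72), beside 50.5% of all genes. The 4 lung epithelium markers were all higher on the array titled +/+ (median difference −3.81), beside 49.5% of all genes. *Sftpc* was at 7.47 (titled −/−) and 10.94 (titled +/+) (difference −3.49), and *Sftpb* at 6.01 (titled −/−) and 7.41 (titled +/+) (difference −1.42). *Sftpa1* and *Scgb1a1* differed by −4.13 and −5.32, but were near background on the array titled −/−, at 1.44 and 1.15. On the array titled +/+ they were at 5.55 and 6.45. Averaged over 2 probe sets each, *Sftpc* differed by −2.20 and *Sftpa1* by −1.72.

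The collagen genes as a group differed little between the arrays. Their median centred difference was 0.044, against 0.0028 over all genes. Of the 36 genes, 23 (63.9%) were higher on the array titled −/−, beside 50.5% of all genes, and 13 (36.1%) were lower, beside 49.5%. Because the values come from whole tissue, fewer cells of a type and less RNA per cell cannot be told apart. Of the 36, 26 had a mean level above the gene median of 7.10 (the median level of all genes), and the strongest of the other 10 were *Col22a1* and *Col7a1*, at mean levels of 6.96 and 6.82. Among the 26, 3 (11.5%) were higher by more than 0.2 log2 units, namely *Col10a1*, *Col5a3* and *Col15a1*, and 2 (7.69%), *Col26a1* and *Col4a5*, were lower by more than 0.2. Among all genes above that median the shares were 10.3% higher and 9.01% lower, so these counts lay near the background. At 0.3, 2 genes were higher (*Col10a1* and *Col5a3*) and 2 lower, beside 4.91% and 3.23% of all genes above that median. Of the 26, 17 (65.4%) were above 0, beside 49.1%, and 9 were below 0, beside 50.9%. At the limit of 1 log2 unit, 1 of the 36 genes was lower, *Col25a1*, beside 4.07% of all genes, and none was higher, beside 5.54%.

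**Figure D1:**
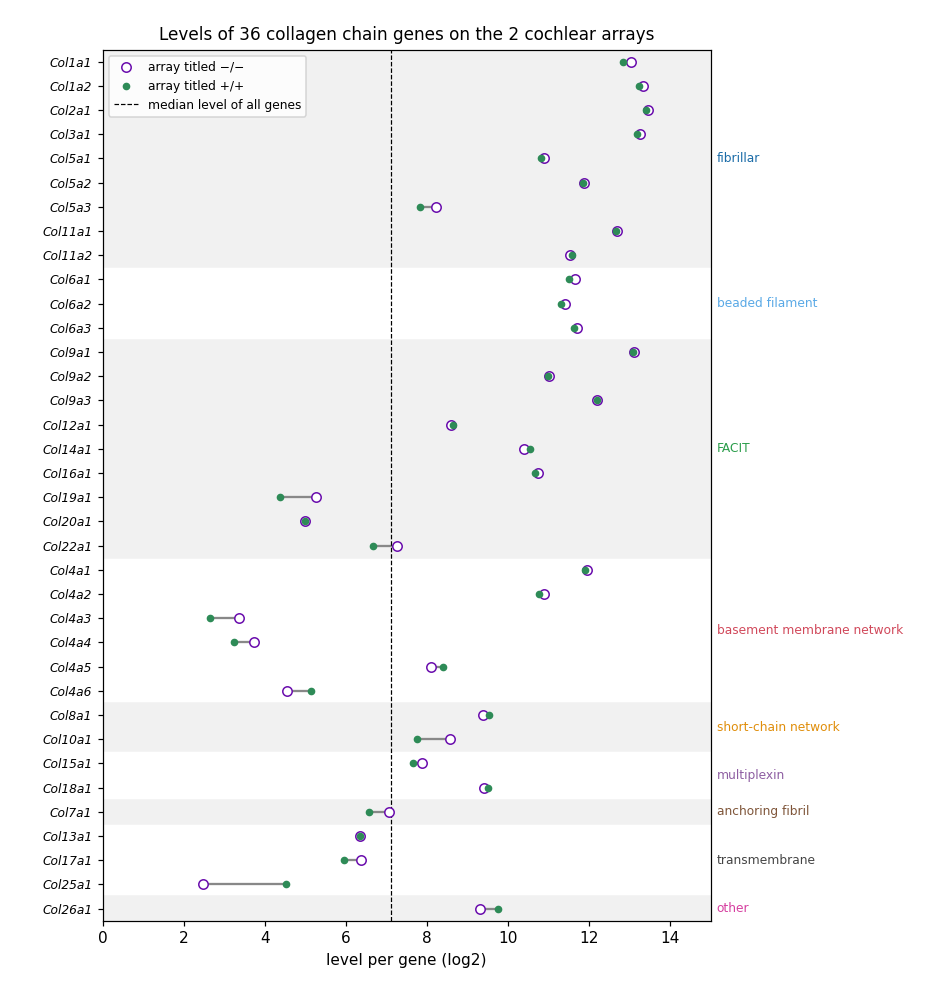
Log2 level of each of the 36 collagen genes on the array titled −/− (open purple) and the array titled +/+ (filled green), joined by a line, with 1 value per array and genes grouped by structural class. The circles nearly coincide for the genes on the right, while *Col10a1* (8.56 (titled −/−) and 7.75 (titled +/+)) and *Col25a1* (2.47 (titled −/−) and 4.51 (titled +/+)) show long lines.

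The size of the difference followed the level. The 18 collagen genes with a mean level above 10, a limit chosen after the values were seen, differed by −0.18 to 0.19, with a median size of 0.060. None of them passed 0.2, where 11.4% of the 810 genes with a mean level above 10 did. The collagen genes were not matched to the 810 for level within this range. *Col1a1*, *Col1a2*, *Col2a1*, *Col3a1* and *Col9a1* had mean levels from 12.93 to 13.43, near the highest observed level. How far signals there were compressed was not tested. Of these 18 genes, 14 (77.8%) were higher on the array titled −/−, beside 54.4% of the 810, but *Col2a1*, *Col9a1* and *Col11a1* turned negative after quantile normalization and after loess. Of the 8 collagen genes from the median up to a level of 10, 5 (62.5%) passed 0.2, beside 20.6% of all genes in that range. Below the median, 8 of 10 collagen genes passed 0.2, as did 4083 of 6197 genes.

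**Figure D2:**
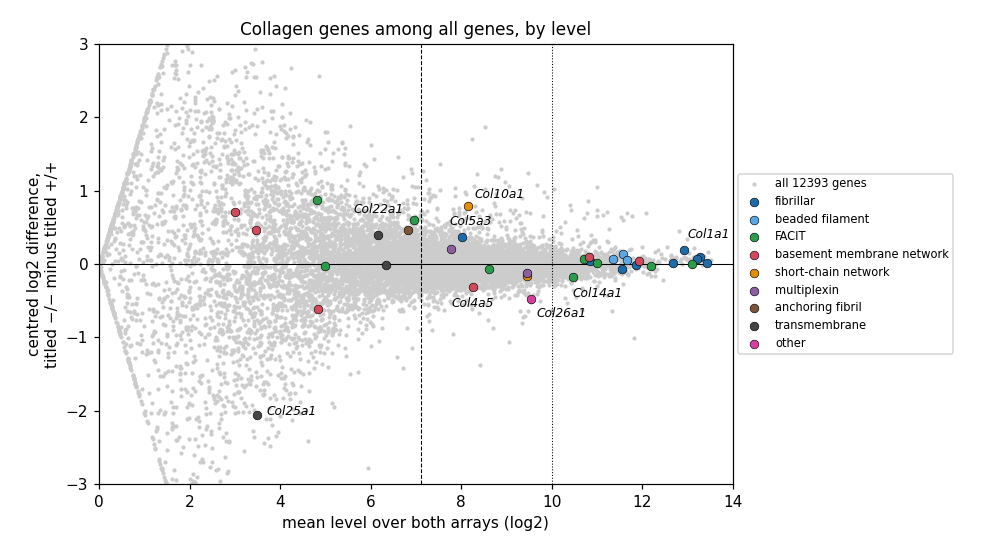
Centred log2 difference (titled −/− minus titled +/+) against the log2 level averaged over the arrays, each point a gene, all genes in grey and collagen genes coloured by class. The dashed line marks the median level of all genes, 7.10, and the dotted line a level of 10, and 58 genes lie outside the drawn range. Collagen genes to the right of the dotted line lie between −0.18 and 0.19, and *Col10a1* stands highest among those between the lines, at 0.80.

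All 9 measured fibrillar collagen genes lay above the median level, and their median difference was 0.045. Type II collagen, the main fibre of cartilage, is made of 3 copies of the chain of *Col2a1*, which was at 13.45 (titled −/−) and 13.42 (titled +/+), a difference of 0.015. The highest level of any probe set was 13.64 (titled −/−) and 13.55 (titled +/+), so *Col2a1* was read close to the highest observed level, and how far its signal was saturated was not tested. Type XI chains, which start the type II fibre, also differed little. *Col11a1* was at 12.70 (titled −/−) and 12.67 (titled +/+) (difference 0.0090), and its second probe set differed by −0.018. *Col11a2*, in which mutations cause deafness in humans, was at 11.53 (titled −/−) and 11.58 (titled +/+), a difference of −0.068.

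Type I collagen, the main fibre of bone, was slightly higher on the array titled −/−. *Col1a1* was at 13.04 (titled −/−) and 12.83 (titled +/+), a difference of 0.19 that lay just under the limit of 0.2, and its weaker probe set differed by 0.20. *Col1a2*, which supplies the partner chain, was at 13.34 (titled −/−) and 13.22 (titled +/+), a difference of 0.096. Its weaker probe set was at 12.56 (titled −/−) and 12.53 (titled +/+), a difference of 0.0069, so the size of the *Col1a2* difference was not the same in its 2 readings. *Col3a1*, whose product forms fine fibres in soft connective tissue and vessel walls, was at 13.26 (titled −/−) and 13.17 (titled +/+), and its probe sets differed by 0.069 and 0.029. Among bone markers, the bone sialoprotein gene *Ibsp* was at 10.36 (titled −/−) and 9.43 (titled +/+) (difference 0.91). The other 4 measured genes of that list, *Alpl*, *Sp7*, *Phex* and *Dmp1*, were lower on the array titled −/−, at −0.079, −0.30, −0.36 and −0.047. The list thus did not move one way together with *Col1a1*, and its part in these differences was not tested.

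Type V chains, which set the diameter of type I fibres, did not move together. *Col5a1* was at 10.89 (titled −/−) and 10.82 (titled +/+), and its 3 probe sets differed by 0.045, 0.035 and 0.064. *Col5a2* was at 11.87 (titled −/−) and 11.86 (titled +/+), and its probe sets differed by −0.014 and −0.12. *Col5a3*, a less common chain of this type, was at 8.21 (titled −/−) and 7.82 (titled +/+). Its difference of 0.37, a 1.29-fold higher level on the array titled −/−, was the largest of the fibrillar class. Its other probe set lay at the floor, at 0.50 (titled −/−) and 0.12 (titled +/+), and cannot serve as a check.

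Type VI collagen forms beaded filaments around cells of connective tissue and muscle. All of its 3 measured chains were higher on the array titled −/− by small amounts, beside 54.4% of all genes with a mean level above 10. *Col6a1* was at 11.66 (titled −/−) and 11.50 (titled +/+) (difference 0.13). *Col6a2* was at 11.41 (titled −/−) and 11.32 (titled +/+), and its probe sets differed by 0.074 and 0.15. *Col6a3* was at 11.71 (titled −/−) and 11.63 (titled +/+) (difference 0.058). The 3 chains lay within 0.072 of each other, which is less than the SD of 0.098 between probe sets of a gene at such levels.

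Of the FACIT class, 9 genes were measured and their median difference was 0.0048. Type IX collagen coats the type II fibre in cartilage, and by their strongest probe sets its 3 chains were the closest of all types with several measured chains. *Col9a1* was at 13.11 (titled −/−) and 13.09 (titled +/+), *Col9a2* at 11.01 (titled −/−) and 10.97 (titled +/+), and *Col9a3* at 12.20 (titled −/−) and 12.21 (titled +/+). Their differences of 0.0048, 0.015 and −0.027 spanned 0.042, but 0.30 after averaging over probe sets, when types XI and VI spanned 0.063 and 0.072. The weaker probe set of *Col9a1* differed by −0.16 at 11.83 (titled −/−) and 11.97 (titled +/+), and that of *Col9a3* by −0.12, both larger in size than those of the strongest probe sets. The faintest *Col9a3* probe set, at 6.05 (titled −/−) and 5.21 (titled +/+), ran the other way.

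Chondrocyte markers, which report the cartilage of the capsule that makes types II, IX and XI, were split. Of 7 measured markers, 3 were higher on the array titled −/− and 4 were lower, and their median was −0.13. Aggrecan, *Acan*, and matrilin 1, *Matn1*, were higher there by 0.20 and 0.23, while the matrilin 3 gene *Matn3*, *Snorc* and *Sox9* differed by −0.30, −0.13 and −0.15, *Hapln1* by −0.15 and *Comp* by 0.044.

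Some FACIT chains of dense connective tissue were lower on the array titled −/− or nearly level. *Col14a1*, which binds fibres in tendon and skin, was at 10.39 (titled −/−) and 10.54 (titled +/+), and its probe sets differed by −0.18 and −0.22. *Col12a1* was at 8.60 (titled −/−) and 8.65 (titled +/+) (difference −0.075). *Col16a1* was at 10.75 (titled −/−) and 10.66 (titled +/+) (difference 0.063). The remaining 3 FACIT genes were below the median level. *Col22a1*, which marks the junction of muscle and tendon, was at 7.27 (titled −/−) and 6.66 (titled +/+) (difference 0.59), and its fainter probe set differed by 0.88. Muscle markers were higher on the same array, with *Acta1*, *Mylpf*, *Ckm* and *Myh3* at 0.45, 0.66, 0.70 and 1.05 and *Tnnt3* and *Myh8* at 0.80 and 0.74, and of the tendon markers *Tnmd* was at 0.49 and *Scx* at 0.13. Their part in the *Col22a1* difference was not tested. The probe sets of *Col19a1* and *Col20a1* had mean levels of 4.99 or less and differed from −1.34 to 2.12, so their direction was not readable.

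The 6 basement membrane chains, with a median difference of 0.066, fell into a pair of high level and 4 chains with larger differences or low levels. *Col4a1* and *Col4a2*, the chains of the common type IV trimer, were nearly equal on both arrays. *Col4a1* was at 11.96 (titled −/−) and 11.90 (titled +/+), and its probe sets differed by 0.042 and −0.015. *Col4a2* was at 10.88 (titled −/−) and 10.77 (titled +/+) (difference 0.091). In the RefSeq annotation of GRCm38.p6 these 2 genes are transcribed in opposite directions from start sites 21 bases apart on chromosome 8. *Col4a5* and *Col4a6*, a second such pair with start sites 1343 bases apart on chromosome X, were both lower on the array titled −/− for their strongest probe sets. *Col4a5*, mutated in human Alport syndrome with its kidney disease and hearing loss, was at 8.11 (titled −/−) and 8.40 (titled +/+). Its difference of −0.31, a 0.806-fold level on the array titled −/−, recurred in the weaker probe set, which was at 6.73 (titled −/−) and 7.10 (titled +/+) (difference −0.39). *Col4a6* was at 4.54 (titled −/−) and 5.13 (titled +/+), and its 2 probe sets ran in opposite directions (−0.61 and 0.59). *Col4a3* and *Col4a4*, which join *Col4a5* in the trimer of the mature glomerulus and cochlea, were at 3.36 and 3.72 on the array titled −/− and at 2.63 and 3.24 on the array titled +/+, close to background.

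The largest difference among collagen genes above the median level was that of *Col10a1*, which encodes the short-chain collagen made by hypertrophic chondrocytes as cartilage is replaced by bone. It was at 8.56 (titled −/−) and 7.75 (titled +/+), a difference of 0.80 or a 1.74-fold higher level on the array titled −/−. A single probe set reads this gene, so there was no second reading. *Ibsp*, also made where cartilage mineralises, was higher on the same array, while *Sp7*, a transcription factor of the bone lineage, was lower, as given above. *Col8a1*, the other measured short-chain collagen and a component of vessel walls and the cornea, was at 9.39 (titled −/−) and 9.53 (titled +/+) (difference −0.17). Its weaker probe set differed by −1.95 at levels below 4 on both arrays.

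In the other direction, *Col26a1* was lower on the array titled −/−, at 9.32 against 9.77 on the array titled +/+. The difference was −0.47, a 0.721-fold level, again from a single probe set. Markers of otic mesenchyme and fibrocytes were lower on the same array: *Pou3f4* was at 9.16 (titled −/−) and 9.78 (titled +/+) (difference −0.64), *Tbx18* differed by −0.67, *Coch* by −0.40 and *Otos* by −0.075. *Tecta* and *Tectb*, which encode non-collagenous proteins of the tectorial membrane, were lower too, at −0.52 and −0.64. *Oc90* and *Otog*, also above the gene median level, differed by 0.073 and 0.030. *Myo7a* and *Pou4f3*, below that level, differed by 0.0076 and −0.083. *Pou4f3* lay in the lowest range of levels, where probe sets of a gene had an SD of 1.10. Its value therefore cannot show whether it was equal on both arrays. The part of these cell types in the *Col26a1* difference was not tested.

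The multiplexins, which lie at the outer face of basement membranes of vessels, muscle and epithelia, had differences of opposite sign. *Col15a1* was at 7.89 (titled −/−) and 7.66 (titled +/+), a difference of 0.20 just past the limit. That difference came from 1 probe set and was smaller than the SD of 0.23 between probe sets at such levels. It was 0.19, under the limit, with low values raised to the 25th percentile. *Col18a1*, whose product holds the endostatin fragment, was at 9.40 (titled −/−) and 9.50 (titled +/+), and its probe sets differed by −0.13 and −0.059. Of endothelial markers, 5 of 5 were higher on the array titled −/−, beside 50.5% of all genes. The largest differences, those of *Pecam1* and *Tie1* (0.60 and 0.36), were at mean levels of 6.18 and 6.89, below the gene median. *Cdh5*, *Tek* and *Kdr*, above the gene median, were at 0.22, 0.10 and 0.032, and *Cdh5* averaged 0.45 over its 2 probe sets. The part of endothelial cells in the *Col15a1* and *Col18a1* differences was not tested. *Sox10* and *Mbp*, the 2 measured Schwann cell markers, were lower on the array titled −/−, at −0.25 and −0.72. Their averages over 3 and 8 probe sets were −0.10 and −0.40.

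The last 4 genes were at or below the median level. *Col7a1*, the chain of the fibrils that anchor skin to its base, was at 7.06 (titled −/−) and 6.57 (titled +/+) (difference 0.47). *Col17a1*, a transmembrane collagen of hemidesmosomes, was at 6.37 (titled −/−) and 5.95 (titled +/+) (difference 0.40). *Col13a1*, a transmembrane collagen of the neuromuscular junction, was at 6.35 on both arrays. The largest difference of the family was that of *Col25a1*, a transmembrane collagen of neurons, at 2.47 (titled −/−) and 4.51 (titled +/+). Its difference of −2.07 was read from 1 probe set in the range where probe sets of a gene vary most.

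**Figure D3:**
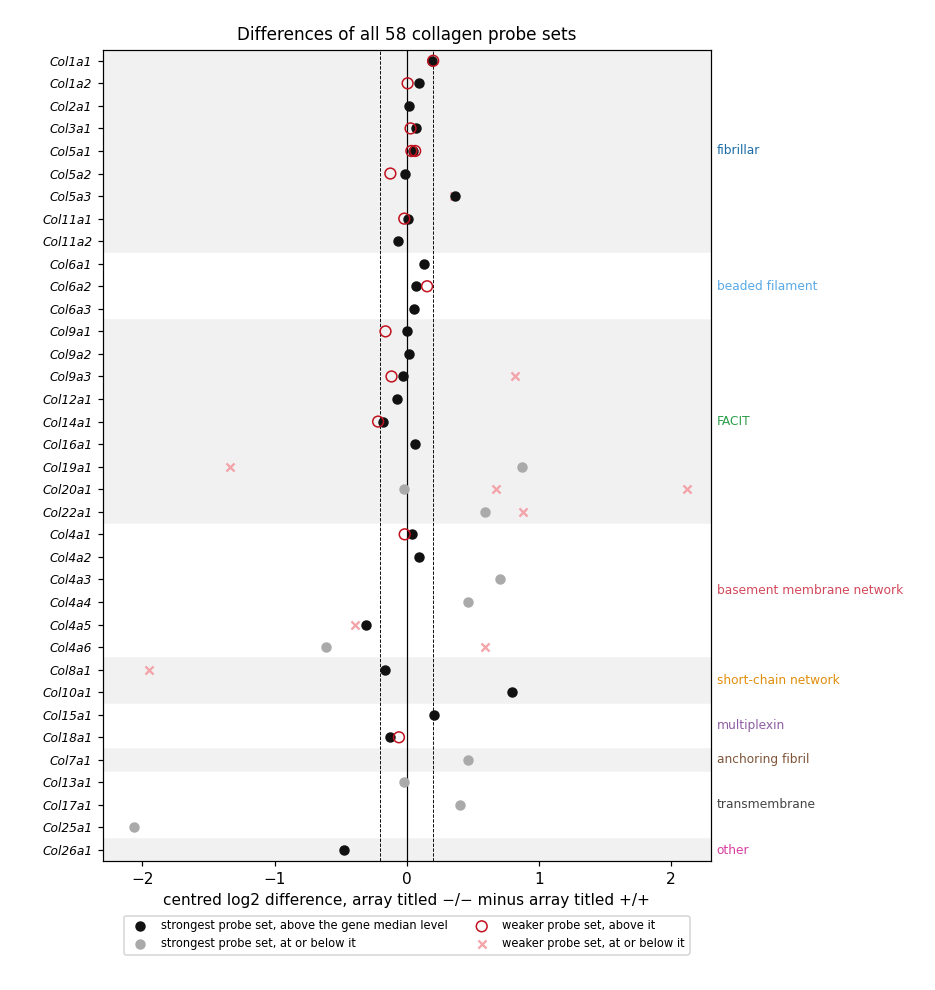
Centred log2 difference (titled −/− minus titled +/+) of all 58 collagen probe sets, with genes in rows by class. Filled points show the strongest probe set of a gene, open circles and crosses its weaker ones, grey points and crosses lie at or below the gene median level, and the dashed lines mark −0.2 and 0.2. Open circles lie close to the filled points of the same gene, at most 0.165 away, while crosses scatter from −1.95 to 2.12 (that of *Col5a3* is hidden by its filled point).

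Probe sets of 1 gene agreed well at high level. Of 19 collagen genes with several probe sets, 12 had all of them on the same side of 0 and 7 did not. Of the 22 weaker probe sets, 13 lay above the median level, in 12 genes. These differed from the strongest probe set of their gene by at most 0.165, and 10 of the 13 had its sign. The other 3 belonged to *Col4a1*, *Col9a1* and *Col11a1*, whose differences were 0.042 or less. The pooled SD between these 25 probe sets of 12 genes was 0.053. For the 17 genes with 1 probe set, *Col10a1* and *Col26a1* included, no such check exists.

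For the genes with the clearest differences, the 250 bases before the start site are shown where RefSeq tables of GRCm38.p6 held them, with *Col1a2* as a gene of high level and small difference. Windows of 27 of the 36 genes were found there. Capitals mark the TATA box letters TATAAA, the CCAAT box letters CCAAT and the GC box letters GGGCGG, each searched on both strands, so that CCGCCC is a GC box read from the other strand. The windows are chr10:34389731-34389980 on the plus strand for *Col10a1*, chr9:20815068-20815317 on the minus strand for *Col5a3*, chrX:141475169-141475418 on the plus strand for *Col4a5* and chr6:4505368-4505617 on the plus strand for *Col1a2*.
Col10a1: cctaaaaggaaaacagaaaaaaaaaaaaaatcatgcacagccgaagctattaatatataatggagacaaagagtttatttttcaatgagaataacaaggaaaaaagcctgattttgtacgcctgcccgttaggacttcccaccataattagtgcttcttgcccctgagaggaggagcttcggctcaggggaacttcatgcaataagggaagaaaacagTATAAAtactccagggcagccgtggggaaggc
Col5a3: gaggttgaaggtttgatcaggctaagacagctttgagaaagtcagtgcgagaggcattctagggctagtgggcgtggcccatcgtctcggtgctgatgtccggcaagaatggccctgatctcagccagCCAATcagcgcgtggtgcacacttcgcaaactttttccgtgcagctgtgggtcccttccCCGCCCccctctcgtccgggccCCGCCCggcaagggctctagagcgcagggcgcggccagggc
Col4a5: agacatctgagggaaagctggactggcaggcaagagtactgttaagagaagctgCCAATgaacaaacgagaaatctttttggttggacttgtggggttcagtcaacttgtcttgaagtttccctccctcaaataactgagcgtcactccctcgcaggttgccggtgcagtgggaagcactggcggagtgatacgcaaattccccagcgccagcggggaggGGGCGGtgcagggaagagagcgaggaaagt
Col1a2: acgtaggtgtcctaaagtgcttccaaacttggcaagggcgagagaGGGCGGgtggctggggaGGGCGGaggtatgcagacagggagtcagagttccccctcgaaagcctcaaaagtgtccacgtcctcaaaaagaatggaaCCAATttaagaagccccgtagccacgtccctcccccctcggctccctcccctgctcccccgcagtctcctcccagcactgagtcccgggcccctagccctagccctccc

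*Col10a1* held TATAAA 32 bases before its start site and neither of the other motifs. *Col5a3* held CCAAT at 122 bases and 2 GC boxes at 63 and 41 bases, *Col4a5* held CCAAT at 196 bases and a GC box at 30 bases, and *Col1a2* held 2 GC boxes at 205 and 188 bases and CCAAT at 109 bases before the start. None of these matches overlapped. Over 30 windows of collagen genes, 16.7% held TATAAA, 40% CCAAT and 53.3% GGGCGG, beside 12.4%, 33.8% and 32.7% of all 32851 windows of this length. A match describes the letters only.

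Genes that fold, secrete, trim and bind collagen, with collagen receptors, basement membrane partners and transcription factors of collagen genes, were read in the same way. Of 78 such genes listed, 62 were measured, and of these 22 (35.5%) were higher on the array titled −/− and 40 (64.5%) were lower, beside 50.5% and 49.5% of all genes. Their median was −0.065, beside 0.0028 over all genes. Of the 53 above the median level, 5 (9.43%) were higher and 7 (13.2%) lower by more than 0.2, beside 10.3% and 9.01% of all genes above that level. The 13 measured genes that modify and fold the chains in the endoplasmic reticulum differed by −0.21 to 0.19, and 1 of them, the lysyl hydroxylase gene *Plod1*, passed 0.2, at −0.21. The cyclophilin gene *Ppib*, the collagen chaperone gene *Serpinh1*, the protein disulphide isomerase gene *P4hb* and *Crtap* had levels above 10 on both arrays and differed by −0.066, −0.025, 0.012 and −0.051. *Serpinh1* averaged 0.029 over its 2 probe sets. Of 8 genes of procollagen secretion, 7 were lower on the array titled −/−, all by small amounts, beside 49.5% of all genes. *Mia3*, the cargo receptor for procollagen, was at −0.14, and *Creb3l2*, *Sec31a* and *Sec23a* at −0.085, −0.044 and −0.065. *Creb3l2* averaged 0.0073 over its 2 probe sets. *Mia2*, counted among the 7, was listed at 0 on both arrays and fell below 0 only through the centring.

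Larger differences appeared among genes that act on the secreted fibre. The cross-linking enzyme gene *Loxl1* was at 10.33 (titled −/−) and 10.76 (titled +/+) (difference −0.45), and its relative *Lox* at 10.90 (titled −/−) and 11.03 (titled +/+) (difference −0.15). The average over the 3 probe sets of *Lox* was −0.24. The procollagen C-proteinase enhancer genes *Pcolce2* and *Pcolce* differed by −0.30 and 0.029. Of 16 fibril-binding genes, tenascin XB, *Tnxb*, was at 7.77 (titled −/−) and 6.78 (titled +/+), a difference of 0.96 from 1 probe set, and *Chad* differed by 0.38. The matricellular protein gene *Sparc* and the small proteoglycan genes *Dcn*, *Bgn* and *Epyc* were close, at −0.0076, −0.075, 0.0093 and −0.13, but *Bgn* averaged 0.15 over its 3 probe sets. Among basement membrane partners, nidogen 2, *Nid2*, was at 9.23 (titled −/−) and 9.56 (titled +/+) (difference −0.35), in the direction of *Col4a5*, while *Nid1*, *Hspg2* and *Agrn* differed by 0.078, 0.14 and −0.012. The average over the 2 probe sets of *Hspg2* was −0.032. Of collagen receptors, *Ddr2*, *Itgb1*, *Mrc2* and *Ddr1* differed by −0.015, 0.094, −0.066 and 0.19. With probe sets averaged, *Itgb1* (6 probe sets), *Mrc2* (2) and *Ddr1* (8) were at 0.31, −0.23 and 0.23. Of transcription factors that drive collagen genes, *Sox5* and *Sox6*, which act beside *Sox9* on cartilage genes, differed by 0.0068 and 0.37. Their averages over 4 and 2 probe sets were −0.35 and 0.21, so the *Sox5* value depended on the probe set.

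**Figure D4:**
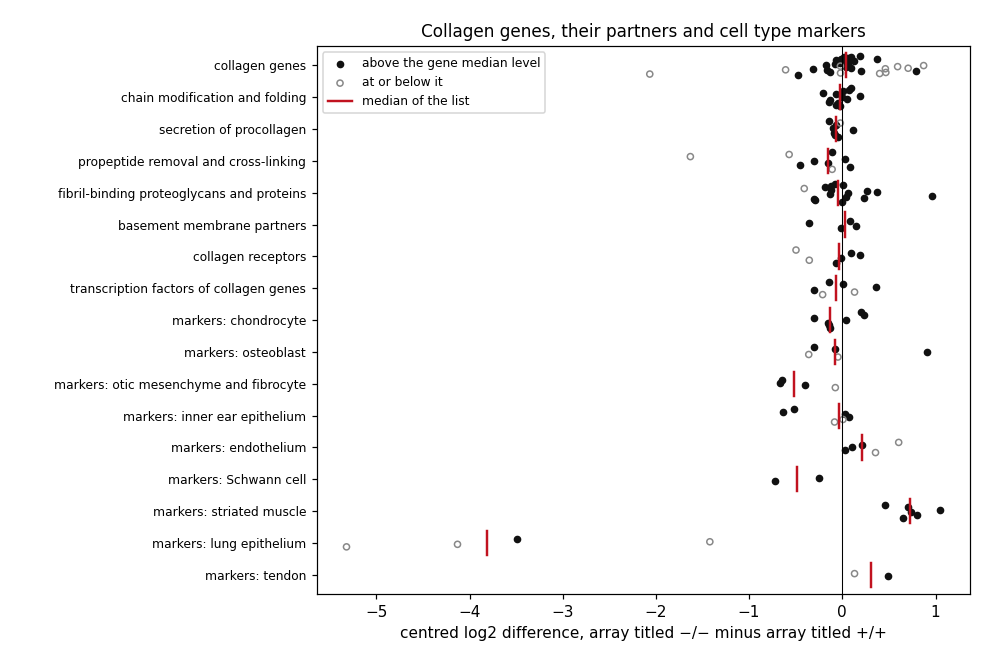
Centred log2 difference (titled −/− minus titled +/+) of the collagen genes, of 7 lists of partner genes and of 9 lists of cell type markers, with 1 point per gene and a red bar at the median of each list. Filled points mark levels above the gene median and open points levels at or below it. The collagen median of 0.044 lies close to 0, while the markers of lung epithelium (−3.81) and striated muscle (0.72) lie far from it. Markers of otic mesenchyme and fibrocytes (−0.52), Schwann cells (−0.49), tendon (0.31) and endothelium (0.22) also lie away from 0.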

How the data were processed

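Levels were taken from a table of 22690 probe sets on 2 arrays. The deposited values are log2 levels from 0 to 13.64 over probe sets that are not controls, the lowest listed at exactly 0. The authors ran MAS5.0 and RMA at first and then relied on multi-mgMOS, from the PUMA package. Which method made the deposited values, and how arrays were scaled, are both not given in the sources used here. Such scaling could shift all differences by a constant, and a saturated or near-background signal compresses or scatters them. Base 2 was read from the values. After removal of 64 control probe sets, 20380 probe sets had 1 gene symbol, 691 several and 1555 none in the platform annotation. All 36 collagen genes matched RefSeq by gene identifier.

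Groups were the titles of the arrays. Differences were centred on the median, and counts and medians are given beside those of all genes. Size limits of 0.2 and 1 log2 units were used. All collagen genes above the gene median level or past 1 are named, and of each list the 4 genes of highest level and those above the median level past 0.3. Further genes (*Col22a1*, *Col7a1* and others below that level, *Plod1*, *Mia2*, *Hapln1*, *Dmp1*, *Myo7a*, *Pou4f3* and *Pecam1*) were named after their values were seen. The members, lists and limits were chosen with earlier results of these data known. With arrays, their number limits the precision. The steps were tested on simulated arrays with planted differences of 1 log2 unit or more, in probe sets of higher level only. Differences near 0.2 and low levels were not covered by that test. Python 3.11.15, numpy 2.4.6, pandas 2.3.3, statsmodels 0.14.6 and matplotlib 3.10.9 were used.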

Additional observations from a re-analysis of the deposited data

How the results depend on the processing

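The alternatives were no centring, quantile normalization, loess on the mean level (span 0.3), values raised to the 25th percentile, only genes above the median level, averaging of a gene's probe sets, no probe sets ending in _x_at or _s_at, and a size limit of 0.3. The number of collagen genes past 1 log2 unit was 1 in the report, 0 when low values were raised to the 25th percentile, 0 with only genes above the median level, and 2 with probe sets averaged, where *Col8a1* (−1.06) joined *Col25a1*. The median of the short-chain class was 0.31 and turned to −0.13 with probe sets averaged, through the faint second probe set of *Col8a1*. *Col25a1* was −0.42 when low values were raised to it and *Col9a3* was 0.23 with probe sets averaged. The sign changed under some alternative for 5 named genes, *Col2a1*, *Col5a2*, *Col9a1*, *Col9a3* and *Col11a1*, whose differences in the report were 0.027 or less in size. The collagen median was between 0.0024 and 0.065, and the number of genes below 0 was 10 to 16 over all 36 genes and 9 of 26 above the median level. The counts past 0.2 among genes above the median level ranged from 2 to 4 higher and stayed at 2 lower. No paired analysis was possible because there is 1 array per title. Differences at levels near background cannot be read from 2 arrays.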
